A study of Mus musculus with 4 samples.

Results

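The cyclins and cyclin-dependent kinases that carry a cell from G1 through S phase into G2 were followed by name: the D-type cyclins Ccnd1, Ccnd2 and Ccnd3, the E-type cyclins Ccne1 and Ccne2, the A-type cyclin Ccna2, and the kinases Cdk1, Cdk2, Cdk4 and Cdk6. These are 10 of the 51905 genes with values in the deposited tables, each found once by its symbol. Positions are given in GRCm38 for the locus as the files define it, which for 8 of the 10 also holds another gene and can reach well past the member itself. RNA was sequenced from CT26 and MC38, mouse colon cancer cell lines, after infection with a lentivirus carrying either shGFP, the control hairpin, or shmaurka-1, a hairpin against Aurka, which encodes the mitotic kinase Aurora-A. Each of the 4 combinations of line and hairpin is 1 library, made from total RNA taken 48 h after seeding, and all 4 carried a lentiviral hairpin and the WT genotype label. CT26 grew in RPMI-1640 and MC38 in high glucose DMEM with added HEPES and amino acids, so line and medium cannot be told apart. Only 1 hairpin against Aurka was sequenced, so its own target and any other target cannot be told apart.

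Cyclins are regulatory subunits whose levels change through the cell cycle and which switch on partner kinases. In G1, D-type cyclins bind Cdk4 or Cdk6 and phosphorylate the retinoblastoma protein, which frees E2F transcription factors. E2F factors then raise Ccne1, Ccne2 and Ccna2, whose products act with Cdk2 at the start of S phase and during it. Ccna2 and later the B-type cyclins act with Cdk1 toward mitosis. CDK inhibitors such as Cdkn1a (p21) and Cdkn2a (p16) restrain these complexes. D-type cyclin genes answer to growth factor signals, while Ccna2 and Cdk1 RNA is highest from S phase to mitosis in dividing cells.

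Promoter sequence from RefSeq (GRCm38.p6) was found for 6 of the 10 members, Ccnd3, Ccne1, Cdk1, Cdk2, Cdk4 and Cdk6. Those of Cdk1, Cdk2 and Cdk4 are shown because these kinases took different courses in the lines: after knockdown Cdk1 was higher beyond counting error in CT26 and level in MC38, Cdk2 went opposite ways, and Cdk4 was higher mainly in MC38. Each run is the 250 bases before the annotated start, 5′ to 3′ on the gene's own strand. Capitals mark matches, on either strand, to E2F sites (TTTGGCGC, TTTCGCGC, TTTCCCGC, TTTGCCGC, TTTGGCGG or TTTCCCGG), the CHR element (its main form TTTGAA and the other forms searched, which were TTCGAA besides TTTAAA along with CTTGAA), the CCAAT box or the E-box (CACGTG).
Cdk1, chr10:69352913-69353162, minus strand: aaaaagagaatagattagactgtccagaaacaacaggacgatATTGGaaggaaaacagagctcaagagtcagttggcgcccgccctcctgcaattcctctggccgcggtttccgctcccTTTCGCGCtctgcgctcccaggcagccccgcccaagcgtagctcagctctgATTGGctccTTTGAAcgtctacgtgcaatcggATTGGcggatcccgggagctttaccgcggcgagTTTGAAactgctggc
Cdk2, chr10:128705052-128705301, minus strand: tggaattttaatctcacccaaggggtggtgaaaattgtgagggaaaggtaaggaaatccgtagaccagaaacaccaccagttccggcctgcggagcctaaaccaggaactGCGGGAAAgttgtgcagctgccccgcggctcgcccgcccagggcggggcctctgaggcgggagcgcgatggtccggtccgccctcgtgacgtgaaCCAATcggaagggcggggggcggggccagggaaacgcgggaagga
Cdk4, chr10:127063285-127063534, plus strand: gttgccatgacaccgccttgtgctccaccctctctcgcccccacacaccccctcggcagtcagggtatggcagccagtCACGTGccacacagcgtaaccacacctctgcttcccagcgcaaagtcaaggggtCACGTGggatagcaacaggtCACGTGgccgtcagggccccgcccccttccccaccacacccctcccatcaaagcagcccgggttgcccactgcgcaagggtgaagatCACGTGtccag

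The Cdk1 run held 1 E2F match (TTTCGCGC, 131 bases before the start), 2 CHR matches (71 and 15 bases before it) and 3 CCAAT boxes on the opposite strand (208, 80 and 48 bases before it). The Cdk2 run held 1 E2F match (GCGGGAAA, the opposite strand of TTTCCCGC, 140 bases before the start) and 1 CCAAT box, and no CHR match. The Cdk4 run held 4 E-boxes, 172, 118, 98 and 11 bases before the start, and none of the other capitalised motifs. The GC box (GGGCGG, not capitalised) matched 2, 5 and 1 times in the runs of Cdk1, Cdk2 and Cdk4, while AP-1 (TGANTCA) and CRE (TGACGTCA) letters had no match in them. No match overlapped a match to another of these motifs. Across the same 250 bases of all 32851 promoters in the RefSeq table, 3.22% held an E2F match, 34% a CHR match, 33.8% a CCAAT box, 6.02% an E-box, 32.7% a GC box, 6.75% AP-1 letters and 1.55% CRE letters. The E-box was added to the search after the sequences had been seen. The letters are a description of the sequence, and no binding was measured.

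The target of the hairpin was reduced in both lines. Aurka had 5724 fragments with shGFP against 1093 with shmaurka-1 in CT26, and 2300 against 413 in MC38. On the log2 scale of counts scaled by TMM (a correction for RNA composition) with 1 count added, Aurka fell by 2.27 in CT26 and by 2.44 in MC38. The effect common to both lines passed edgeR's quasi-likelihood test with line as a block (log2 fold change −2.35 ± 0.11 SE, adjusted p = 6.0e-92). The libraries held 22207769 to 23752267 fragments, the deepest 1.07 times the shallowest. The labels call CT26 a fibroblast and MC38 an epithelial cell. Among 12 epithelial markers, Epcam had at most 1 fragment in any library and Cdh1 1 to 6, and the summed level of the list was 1.31 to 1.82 FPKM in MC38 against 42.7 to 43.1 FPKM in CT26, most of it Krt18. Of 12 fibroblast markers, only Thy1 lay at 5 fragments or fewer in every library, and their summed level was 997 to 999 FPKM in CT26 and 617 to 621 FPKM in MC38. Of the leukocyte genes, Ptprc and Cd3e had 0 to 3 fragments and Adgre1 1 to 9, while the macrophage genes Cd68 and Lyz2 had 79 to 145 and 31 to 98, and the summed level of the list was 4.65 to 8.19 FPKM.

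**Figure D1:**
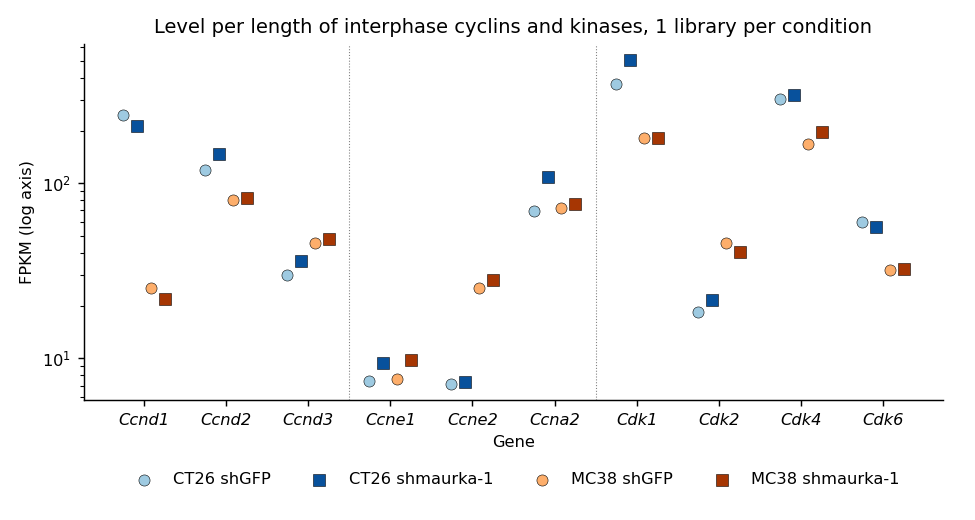
Level of each member in FPKM (fragments scaled to transcript length and library depth, log axis) in the 4 libraries, circles for shGFP and squares for shmaurka-1, blue for CT26 and orange for MC38. Ccnd1 sits near 244 and 213 FPKM in CT26 and at 25.1 and 21.7 FPKM in MC38, while Ccne2 lies the other way, at 7.12 and 7.31 FPKM in CT26 and 25.2 and 28.1 FPKM in MC38.

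Levels are compared between genes in FPKM, which divides by transcript length. In CT26 the order from highest to lowest was Cdk1, Cdk4, Ccnd1, Ccnd2, Ccna2, Cdk6, Ccnd3, Cdk2, Ccne1 and Ccne2, with and without the knockdown. In MC38 shGFP it was Cdk1, Cdk4, Ccnd2, Ccna2, Ccnd3, Cdk2, Cdk6, Ccne2, Ccnd1 and Ccne1, and the knockdown library differed in having Cdk4 above Cdk1. By fragments, not divided by length, Cdk1 was not the highest. In CT26 shGFP it had 4343 fragments, below Ccnd1 (19643), Ccnd2 (14194), Cdk4 (11569) and Cdk6 (8571). In MC38 shGFP it had 2571, below Ccnd2 (10048), Cdk4 (7734), Cdk6 (5590) and Ccna2 (4301). The place of Cdk1 thus depends on the length correction. With 1 library for each condition the spread is unknown, so no neighbouring ranks were tested. Among genes at 1 FPKM or more, Cdk1 stood at the 97.2 to 98.7 percentile and Cdk4 at the 97.1 to 97.6 percentile in the 4 libraries. Ccnd1 stood at the 96.7 percentile in CT26 shGFP and at the 67.2 percentile in MC38 shGFP, while Ccne1, the cyclin that opens S phase with Cdk2, stood between 30.3 and 38.5 everywhere.

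A pair of measures describes the knockdown. Within a line, a log2 fold change between 2 libraries carries a 95% counting interval (exact conditional binomial) that covers counting error only and no spread between cultures. Across lines, edgeR's test asks for an average effect over both, here called the common effect, with the lines as the only replicates. It does not require the lines to agree in size or sign. In bulk RNA, fewer cells in a phase of the cycle and less RNA per cell cannot be told apart. At this depth the intervals are narrow: in CT26 7 of 10 members had an interval clear of no change, 6 above and 1 below, beside 43.2% of all 11928 genes tested. In MC38 8 of 10 did, 5 above and 3 below, beside 45.0% of all genes. The study's own selection asked for a change above 1.5-fold or below 0.6-fold in both lines, which 0 members met, beside 0.528% of all genes. With these limits applied to each line by itself, 1 member passed in CT26 (Ccna2), beside 5.77% of all genes, and 0 in MC38, beside 3.5%. The common effect was called at an adjusted p under 0.05 for 1 member, Ccna2, which is 1 of 333 genes called, 2.79% of those tested. Of the members, 9 of 10 had a value above 0 in CT26, with a median of 0.16 where the median of all genes was −0.01, and 5 of 10 did in MC38, with a median of 0.02 where that of all genes was 0.00.

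**Figure D2:**
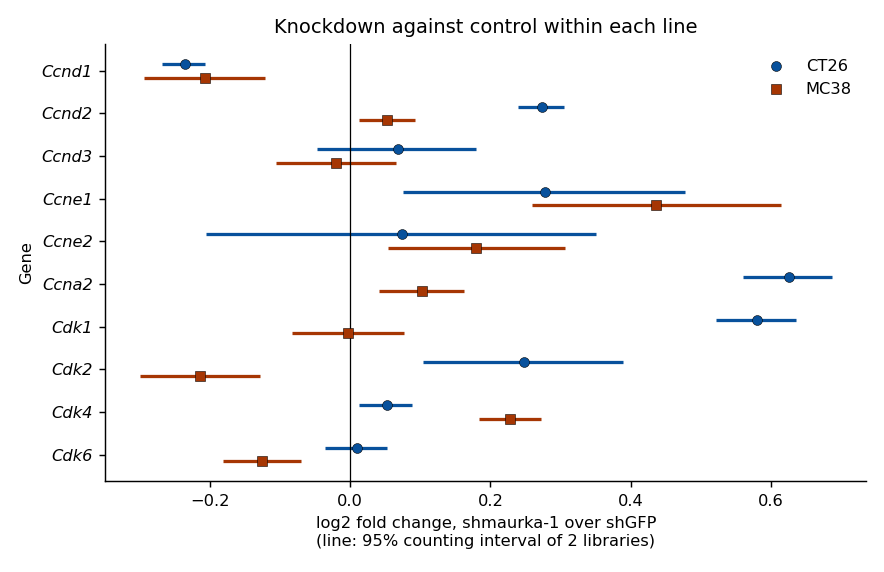
Log2 fold change of each member, shmaurka-1 over shGFP, in CT26 (blue circles) and MC38 (orange squares), with lines for the 95% counting interval between 2 libraries. Ccnd1 lies to the left of 0 in both lines, Ccna2 and Cdk1 lie near 0.6 in CT26 and near 0 in MC38 (0.10 and −0.00), and Cdk2 lies on opposite sides of 0.

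Ccna2 and Cdk1, the cyclin and kinase of late S phase and G2, moved furthest in CT26. Ccna2 (ENSMUSG00000027715, chr3:36552606-36572150 in GRCm38) had 3452 fragments in CT26 shGFP, 4896 in CT26 shmaurka-1, 4301 in MC38 shGFP and 4523 in MC38 shmaurka-1. The CT26 control library was the lowest of the 4 and the CT26 knockdown library the highest, with both MC38 libraries between them. Its log2 value, shmaurka-1 over shGFP, came to 0.62 (0.56 to 0.69) for CT26 and to 0.10 (0.04 to 0.16) for MC38, and MC38 minus CT26 was −0.52 (−0.61 to −0.43). The common effect was 0.36 ± 0.10 SE with an adjusted p of 0.013 by edgeR, so it averages a 1.54-fold and a 1.07-fold difference. That call was lost with upper-quartile scaling (adjusted p = 0.053), with a stricter filter of 50 counts (0.15), with FPKM values (0.39 to 0.51), with DESeq2 (0.73) and with no block for the line (1), while the effect itself was 0.35 to 0.38 in these settings. Exosc9, an RNA exosome subunit that shares the Ccna2 locus in the files, had 890, 762, 748 and 726 fragments in the same order of libraries, and its log2 values of −0.10 and −0.01 did not follow those of Ccna2.

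Cdk1 (ENSMUSG00000019942, chr10:69335146-69352938), the kinase that drives entry into mitosis, was alone in its locus and had 4343 fragments in CT26 shGFP, 5972 in CT26 shmaurka-1, 2571 in MC38 shGFP and 2514 in MC38 shmaurka-1. Both CT26 libraries lay above both MC38 libraries, and the 2 MC38 libraries were alike. Its log2 value came to 0.58 for CT26 (0.52 to 0.64), just under the 1.5-fold limit at 1.49-fold, and to −0.00 for MC38 (−0.08 to 0.08). The difference, MC38 minus CT26, was −0.58 (−0.68 to −0.48), for which the design leaves no test. The common effect, 0.30 ± 0.10 SE, missed the threshold (adjusted p = 0.083 by edgeR). In FPKM, Cdk1 was at 371 and 504 in CT26 and at 181.22 and 181.50 in MC38, a smaller log2 difference of 0.44 in CT26.

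Genes of mitosis were higher in CT26 beside this pair. Of the list, 18 of 18 mitosis genes tested had a value above 0 in CT26, with a median of 0.73, where 49.2% of all genes did, and 3 of 18 did in MC38, with a median of −0.11, where 49.9% of all genes did. In the same CT26 libraries the fibroblast markers tested had a median of −0.25, with 3 of 11 above 0 (Dcn −0.67, Col3a1 −0.38, Col1a1 −0.34 and Sparc −0.25). The epithelial marker Krt20 went from 434 fragments in the control to 205. Of the same list Krt18 had 1516 and 1485 fragments (0.09) and Krt19 6 and 13. The summed level of that list was 43.1 and 42.7 FPKM. In MC38 the fibroblast median was −0.05, also with 3 of 11 above 0, and Krt20 had 2 and 0 fragments. The endothelial markers, at a summed level of 0.54 to 1.76 FPKM, had a median of 0.09 in CT26 and −1.10 in MC38 over the 2 of 4 tested, Cdh5 (173 and 81 fragments in MC38, −1.06, −1.47 to −0.68) and Pecam1 (42 and 18, −1.15, −2.08 to −0.37). The part of these genes in the Cdk1 and Ccna2 values was not tested. In the common test, which called 2.79% of all genes, 6 of 18 mitosis genes were called higher and 0 lower: Bub1b, Mki67, Kif20a, Top2a, Plk1 and Aurkb. Bub1b, a spindle checkpoint kinase, had log2 values of 0.91 in CT26 and 0.11 in MC38 (adjusted p = 1.2e-04 by edgeR). Mki67, the proliferation antigen, had 0.76 and −0.06 (adjusted p = 0.0091). Aurkb, the other main Aurora kinase of mitosis, had 0.86 and −0.14 (adjusted p = 0.044 by edgeR). Kif20a had 0.89 and −0.13, Top2a 0.70 and −0.09, and Plk1 0.63 and 0.02. Aurkb, Mki67, Kif20a and Top2a were thus common calls with values of opposite sign in the lines, their MC38 intervals below 0. Among 5 other cyclins tested none passed, and Ccnb1, the mitotic B-type partner of Cdk1, had 3376, 5270, 2685 and 2117 fragments, with log2 values of 0.76 in CT26 (0.70 to 0.82) and −0.31 in MC38 (−0.40 to −0.23). Ccnb2 had 0.70 and −0.14. Ccng1, the most abundant of the others after Ccnb1, had −0.18 and 0.06.

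**Figure D3:**
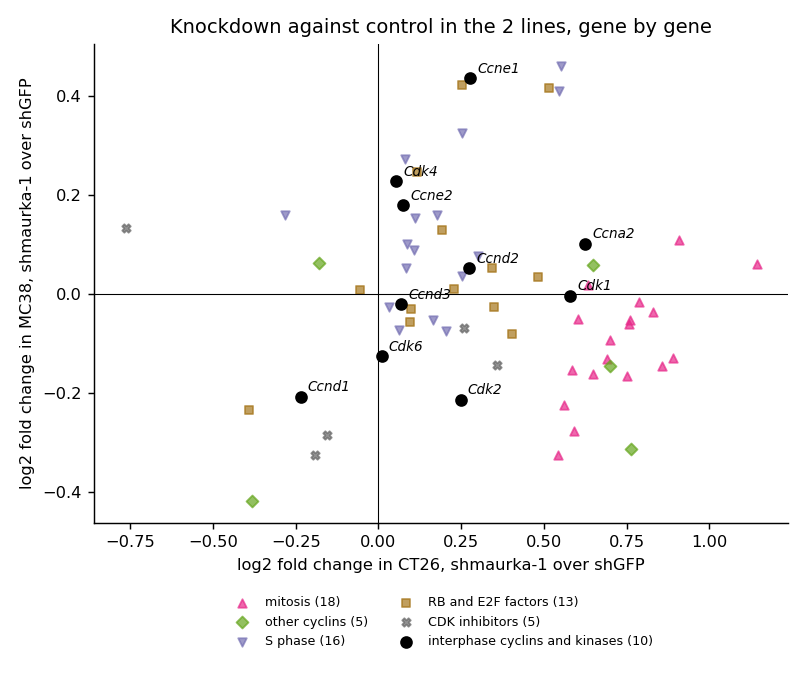
Log2 fold change after knockdown in CT26 (horizontal) and MC38 (vertical) for the members, in black with names, and for 5 lists of other cell cycle genes, with the number of genes in brackets. The mitosis genes sit at the right, above 0.54 in CT26, and 15 of 18 lie below 0 in MC38, down to −0.32 for Cenpf, with Ccna2 and Cdk1 above most of them, while Ccnd1 lies to the lower left with Cdkn1a, Cdkn1b, Rbl2 and Ccng2, the genes below 0 in both lines.

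Cdk2 (ENSMUSG00000025358, chr10:128697939-128744855), the kinase partner of E-type cyclins and of Ccna2, had 778 fragments in CT26 shGFP, 850 in CT26 shmaurka-1, 2422 in MC38 shGFP and 2047 in MC38 shmaurka-1. It was higher in both MC38 libraries than in either CT26 library. After knockdown its log2 value was 0.25 in CT26 (0.10 to 0.39) and −0.21 in MC38 (−0.30 to −0.13), so the intervals lay on opposite sides of 0, and MC38 minus CT26 was −0.46 (−0.63 to −0.29). The common effect was 0.01 (adjusted p = 0.99 by edgeR), an average of opposite values. Dgka, which shares the locus, had 25, 29, 319 and 228 fragments. Its log2 values were 0.32 in CT26 (−0.49 to 1.17, an interval that contains 0) and −0.45 in MC38 (−0.71 to −0.21). The division of reads between Dgka and Cdk2 was not tested.

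The kinases of G1 differed less. Cdk4 (ENSMUSG00000006728, chr10:127063534-127070264) had 11569 fragments in CT26 shGFP, 11035 in CT26 shmaurka-1, 7734 in MC38 shGFP and 8876 in MC38 shmaurka-1. After scaling, its log2 value was 0.05 in CT26 (0.01 to 0.09) and 0.23 in MC38 (0.18 to 0.27), the opposite ranking of the lines from that of Ccna2 and Cdk1. MC38 minus CT26 was 0.18 (0.12 to 0.24), and the common effect, 0.14, was not called (adjusted p = 0.59 by edgeR). Tspan31 shares the Cdk4 locus, with 4665, 4570, 2850 and 3294 fragments, and its log2 values of 0.09 and 0.24 lay close to those of Cdk4. The division of reads between these neighbours was not tested. Cdk6 (ENSMUSG00000040274, chr5:3341485-3531008), the alternative partner of D-type cyclins, had 8571, 7936, 5590 and 5023 fragments. Its log2 value was 0.01 in CT26 (−0.04 to 0.05) and −0.12 in MC38 (−0.18 to −0.07), but in FPKM both turned sign, to −0.09 in CT26 and 0.02 in MC38. The common effect was −0.06 (adjusted p = 0.90 by edgeR).

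Among D-type cyclins, Ccnd1 was lower after knockdown in both lines by similar amounts. Ccnd1 (ENSMUSG00000070348, chr7:144915100-144939925), the cyclin most responsive to growth factor signals, had 19643 fragments in CT26 shGFP, 15344 in CT26 shmaurka-1, 2405 in MC38 shGFP and 2041 in MC38 shmaurka-1. Each knockdown library lay below its control, and both MC38 libraries lay far below both CT26 libraries. The log2 value was −0.24 in CT26 (−0.27 to −0.21) and −0.21 in MC38 (−0.29 to −0.12), and MC38 minus CT26 was 0.03 (−0.06 to 0.12). Though the lines were alike, the common effect of −0.22 ± 0.09 SE was not called (adjusted p = 0.23 by edgeR). Its locus also holds Oraov1, with 425, 324, 309 and 342 fragments and log2 values of −0.27 in CT26 (−0.49 to −0.06) and 0.18 in MC38 (−0.05 to 0.40), near that of Ccnd1 in CT26 and of the other sign in MC38.

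Ccnd2 (ENSMUSG00000000184, chr6:127122966-127212411) had 14194, 15785, 10048 and 10212 fragments in CT26 shGFP, CT26 shmaurka-1, MC38 shGFP and MC38 shmaurka-1. Its log2 value was 0.27 in CT26 (0.24 to 0.31) and 0.05 in MC38 (0.01 to 0.09), and the common effect was 0.16 (adjusted p = 0.47 by edgeR). The locus of Ccnd2 spans 89446 bases with 4 other genes, of which Tpi-rs11 had the most counts (a mean of 51.5), while the RefSeq gene (GRCm38.p6) lies at chr6:127125162-127152188. In CT26, then, Ccnd1 and Ccnd2 moved in opposite directions beyond counting error. Ccnd3 (ENSMUSG00000034165, chr17:47505051-47611492) had 1287, 1241, 2289 and 2212 fragments, with log2 values of 0.07 in CT26 (−0.05 to 0.18) and −0.02 in MC38 (−0.11 to 0.07), neither clear of 0, and a common effect of 0.02 (adjusted p = 0.97 by edgeR). In FPKM the CT26 value of Ccnd3 was 0.26. Bysl, a ribosome assembly gene in the same locus, had more counts than Ccnd3 (a mean of 2808 against 1707 deposited counts), so the level of Ccnd3 is uncertain.

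The sum of the D-type cyclins was nearly equal with both hairpins, while the share of Ccnd1 was lower and that of Ccnd2 higher after knockdown in each line. Summed over Ccnd1, Ccnd2 and Ccnd3 the level was 393.6 FPKM with shGFP and 396.2 FPKM with shmaurka-1 for CT26, and 151.4 and 151.7 FPKM for MC38. In CT26, Ccnd1 made up 62.1% of that sum with shGFP and 53.9% with shmaurka-1, and Ccnd2 made up 30.3% and 37.1%. In MC38, Ccnd2 led with 53.1% and 54.1%, Ccnd3 gave 30.3% and 31.5%, and Ccnd1 gave 16.6% and 14.3%. By fragments, without the length correction, Ccnd1 gave 55.9% and Ccnd2 40.4% in CT26 with shGFP, and Ccnd2 led narrowly with shmaurka-1, at 48.8% against 47.4%. In MC38 the share of Ccnd3 by fragments was 15.5% and 15.3%, and that of Ccnd2 68.2% and 70.6%. Cdk4 made up 83.5 to 85.8% of the sum of Cdk4 and Cdk6 in all 4 libraries. By fragments it made up 57.4 to 63.9%. The summed D-type cyclins were 1.08 and 1.05 times the sum of Cdk4 and Cdk6 in CT26 and 0.76 and 0.67 times in MC38. These ratios are of RNA, and no protein or complex was measured.

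**Figure D4:**
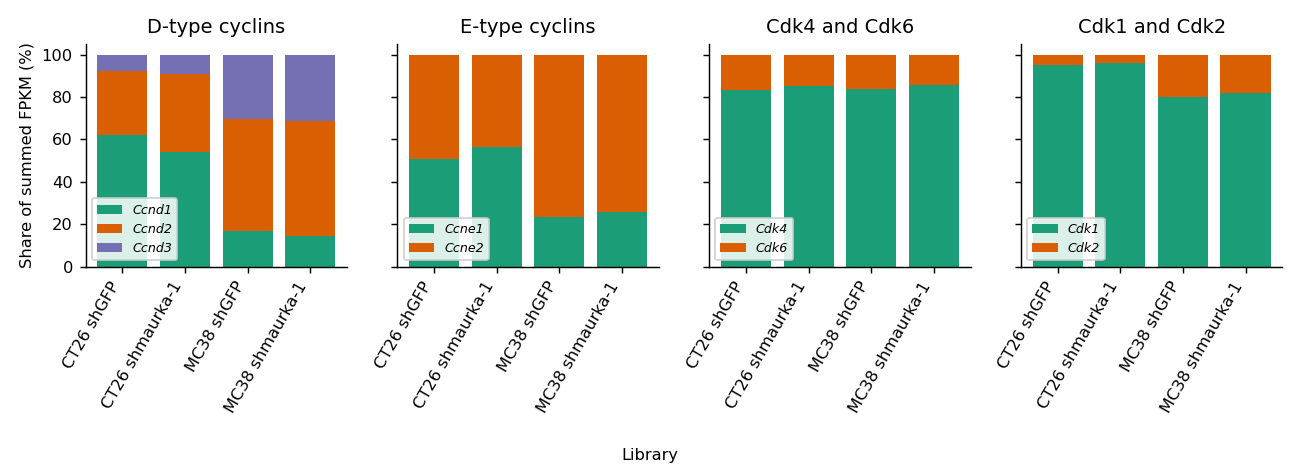
Share of summed FPKM (%) that each member takes of its group in each library, with bars stacked to 100. The D-type cyclins are mostly Ccnd1 in CT26 (62.1% and 53.9%) and mostly Ccnd2 in MC38 (53.1% and 54.1%), though by fragments Ccnd2 leads in CT26 shmaurka-1 (48.8% against 47.4%), while Cdk4 takes 83.5 to 85.8% of its pair in every library.

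The E-type cyclins had few fragments, and within each line their intervals were the widest among the members. Ccne1 (ENSMUSG00000002068, chr7:38097984-38107534), alone in its locus, had 390 fragments in CT26 shGFP, 435 in CT26 shmaurka-1, 460 in MC38 shGFP and 610 in MC38 shmaurka-1. Each knockdown library was above its control. The log2 value was 0.28 in CT26 (0.08 to 0.48) and 0.44 in MC38 (0.26 to 0.61), and their difference of 0.16 (−0.11 to 0.43) was within counting error. The common effect of 0.36 ± 0.15 SE matched that of Ccna2 in size and was not called (adjusted p = 0.21 by edgeR). Ccne2 (ENSMUSG00000028212, chr4:11191351-11254258) had 221, 214, 972 and 1079 fragments, with log2 values of 0.07 in CT26 (−0.21 to 0.35) and 0.18 in MC38 (0.05 to 0.31), and the common effect of 0.13 was not called (adjusted p = 0.81 by edgeR). Ints8, an Integrator subunit in the Ccne2 locus, had 1395, 1210, 877 and 759 fragments, more than Ccne2 in CT26, and its log2 values were −0.08 and −0.18. Ccna2 exceeded the summed E-type cyclins 4.76-fold and 6.45-fold in CT26 and 2.19-fold and 2.01-fold in MC38, in FPKM.

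The lines themselves differed far more than the knockdown did. In edgeR's test of MC38 against CT26 with hairpin as a block, 9 of 10 members were called, 3 higher and 6 lower in MC38, beside 76.1% of all 13984 genes tested, so a call by itself sets the members little apart. The median absolute log2 difference between lines was 0.93 over the members and 0.81 over all genes, against 0.15 and 0.12 for the common knockdown effect. Ccnd1 had the largest difference: MC38 was 9.87-fold lower (log2 −3.30 ± 0.10 SE, adjusted p = 5.6e-226), with −3.27 in the shGFP pair of libraries and −3.24 in the shmaurka-1 pair. Ccnd2 was also lower in MC38 (−0.90 ± 0.09 SE, adjusted p = 6.3e-22 by edgeR) and Ccnd3 higher (0.50 ± 0.11 SE, adjusted p = 8.3e-06). Ccne2 was 3.74-fold higher in MC38 (log2 1.90 ± 0.15 SE, adjusted p = 9.1e-37 by edgeR), and Ccne1 was not called (0.03 ± 0.15 SE, adjusted p = 0.85).

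The kinases split in the same comparison. Cdk1 was 2.52-fold lower in MC38 (log2 −1.34 ± 0.10 SE, adjusted p = 1.2e-39 by edgeR), with −0.99 in the shGFP pair and −1.58 in the shmaurka-1 pair, so its distance between lines was wider with the knockdown. Cdk2 was 2.17-fold higher in MC38 (1.12 ± 0.11 SE, adjusted p = 5.5e-22 by edgeR), with 1.40 and 0.94 in the same order of pairs, so its distance was narrower. In FPKM, Cdk1 exceeded Cdk2 by 20.2-fold and 23.5-fold in CT26 and by 3.98-fold and 4.47-fold in MC38. The gap was much smaller by fragments. Of the 2 kinases together, Cdk1 made up 84.8% and 87.5% by fragments in CT26, against 95.3% and 95.9% by FPKM. In MC38 it made up 51.5% and 55.1% by fragments, against 79.9% and 81.7% by FPKM. Cdk4 was lower in MC38 (−0.78 ± 0.09 SE, adjusted p = 1.2e-16 by edgeR), and so was Cdk6 (−0.97 ± 0.09 SE, adjusted p = 5.5e-24). Ccna2 was called lower in MC38 (−0.23 ± 0.10 SE, adjusted p = 0.024 by edgeR), but its shGFP pair stood at 0.08 and its shmaurka-1 pair at −0.44, and the direction turned to 0.11 when libraries were scaled to total counts. The line call of Ccna2 was also lost in 7 other settings, with adjusted p from 0.052 (limma-voom) to 0.70 (upper-quartile scaling). The lines also differed in the marker lists above, with Krt18 at 1516 and 1485 fragments in CT26 against 12 and 14 in MC38, and the part of that in these differences was not tested.

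**Figure D5:**
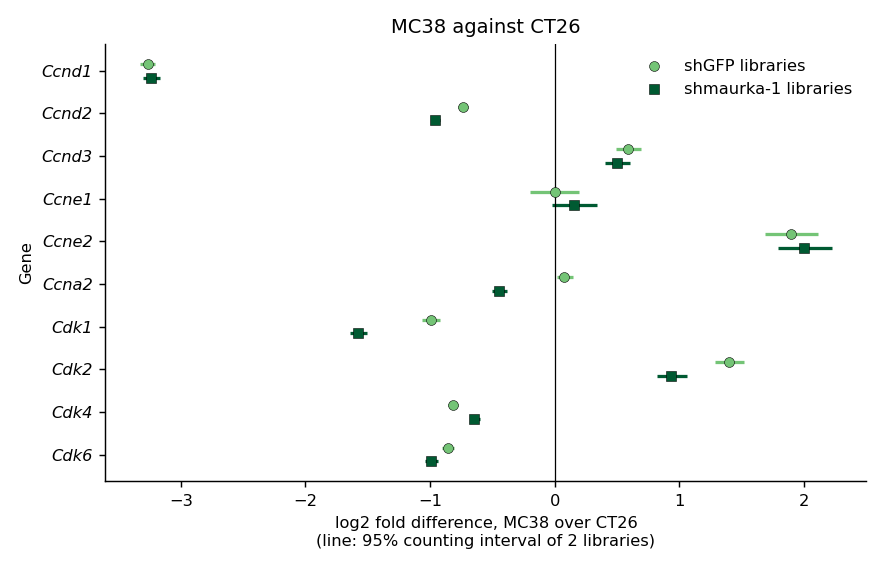
Log2 difference of each member, MC38 over CT26, in the shGFP libraries (light circles) and the shmaurka-1 libraries (dark squares), with lines for the 95% counting interval between 2 libraries. Ccnd1 lies at −3.27 and −3.24 and Ccne2 at 1.89 in the shGFP pair, while Ccna2 lies on either side of 0 (0.08 and −0.44), a direction that turns to 0.11 in the fit when libraries are scaled to total counts.

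Regulators of these kinases were read from lists. Of 7 CDK inhibitors 5 were tested and none passed in the common test, with a median of −0.15 in CT26 and −0.14 in MC38. Cdkn1a (p21), the most abundant in CT26, had 15510 fragments in CT26 shGFP, 12487 in CT26 shmaurka-1, 1017 in MC38 shGFP and 796 in MC38 shmaurka-1. In MC38 Cdkn1b had more, with 2084 and 1676 fragments. The log2 value of Cdkn1a was −0.19 in CT26 (−0.23 to −0.16) and −0.32 in MC38 (−0.46 to −0.19), and its common effect of −0.25 missed the threshold (adjusted p = 0.17 by edgeR). Like Ccnd1, Cdkn1a was far lower in MC38 (log2 −4.28). Cdkn2a had 0 and 0 fragments in CT26 against 189 and 221 in MC38, and Cdkn2b 0 and 1 against 188 and 164, so neither entered the common test.

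The RB and E2F list had 0 of 13 called, with a median of 0.23 in CT26 and 0.01 in MC38. E2f4, its most abundant member and mainly a repressor, had 5541, 5525, 4521 and 5257 fragments, with log2 values of 0.12 and 0.25 (adjusted p = 0.44 by edgeR). Both subunits of the CKS list, which bind kinase complexes, missed the threshold. Cks1b, the more abundant, had 0.43 in CT26 and −0.05 in MC38. Of 8 genes that phosphorylate or dephosphorylate the kinases, 1 was called: Cdc25b, a phosphatase that activates Cdk1 complexes, with 3631, 6454, 2273 and 2348 fragments and log2 values of 0.95 (0.89 to 1.01) and 0.08 (−0.01 to 0.16), adjusted p = 5.5e-05 by edgeR. Its relative Cdc25c had 0.81 in CT26 and −0.28 in MC38 and was not called (adjusted p = 0.23).

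Of 9 tested genes of cyclin turnover, 2 were called higher, where 2.79% of all genes were called, both of the anaphase-promoting complex system that destroys cyclins A and B. Cdc20, its mitotic activator, had log2 values of 0.72 in CT26 and 0.20 in MC38 (adjusted p = 3.9e-04 by edgeR). Fbxo5, its inhibitor through S phase and G2, had 0.91 and 0.27 (adjusted p = 0.0013). Fzr1, the other activator on the list, had 0.38 and −0.26 and was not called (adjusted p = 0.92). Skp2 was listed at 0 in all 4 libraries, and Fbxo31 was listed at 0 in CT26 in a locus with 209 other genes, so no level is read from these zeros. The S phase list had 2 of 16 called higher and 0 lower, with medians of 0.14 in CT26 and 0.10 in MC38. They were Rrm2, a ribonucleotide reductase subunit (0.55 and 0.41, adjusted p = 1.6e-04 by edgeR), and Cdc6, which loads the replicative helicase (0.55 and 0.46, adjusted p = 0.0047). Rrm2 and Cdc6 were higher beyond counting error in both lines, as were the members Ccne1, Ccna2, Ccnd2 and Cdk4. Of all genes, 21.8% had an interval above 0 in CT26 and 22.7% in MC38, and the share in both lines was not counted.

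Genes with the most similar course were sought over all 11538 genes with a mean of at least 50 counts, by the Euclidean distance of centred log2 counts over the 4 libraries. Over 4 points many genes can lie close by. For Ccna2 the nearest were Ckap2, Stil and Ccnf (distances 0.08, 0.08 and 0.08), with 4 genes in all within 0.1. For Cdk1 they were Ube2c, Tiam1 and Miip (0.05, 0.05 and 0.07), again with 4 within 0.1. For Cdk2 they were Pold1, Npat and Nup43, and for Ccne1 Gm4879, Desi1 and Srsf6. For Ccne2 they were Mrm1, Entpd5 and Lmf1. Ccnd1 had no gene within 0.1, and its nearest were Mpv17, Slc25a25 and Mdm2 (0.11, 0.13 and 0.13). For the others the crowd was larger: 38 genes lay within 0.1 of Ccnd2 (nearest Bcat1, Ruvbl1 and Trak1), 108 of Ccnd3 (Ywhaq, Bcl7a and Papolg), 64 of Cdk4 (Lyar, Zfp746 and Rsl24d1) and 65 of Cdk6 (Gpam and Ftl1-ps1).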

How the data were processed

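RNA from CT26 and MC38 cells with shGFP or shmaurka-1 was sequenced as 1 strand-specific library for each condition. The submitters' processing notes name Trimmomatic 0.36, HISAT2, Cuffdiff and Cufflinks 2.2.1, and whether counting used strand is not given in the sources used here. For every gene and library the authors deposited an FPKM value beside an estimated count. The estimated counts had been scaled between libraries, and dividing by each library's step gave whole fragments within 0.05 for 97.0 to 97.6% of nonzero values. Coordinates are GRCm38: of 20049 single-gene loci, 99.7% overlapped the RefSeq GRCm38.p6 gene of that name.

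Counts were rounded and tested with edgeR 4.0.16 (R 4.3.3, quasi-likelihood, TMM, Benjamini-Hochberg over all genes tested) with line or hairpin as a block, for genes averaging 10 counts or more within both lines (11928 genes) or over the 4 libraries (13984 genes). Each fit leaves 1 residual degree of freedom, and an infinite prior, so the spread is taken from all genes. Within-line values add 1 count, and their 95% intervals use fragments. DESeq2 1.42.0, limma 3.58.1, other scalings and filters, FPKM with pseudocounts of 0.1 and 1, and leaving out a line or hairpin were alternatives. Separate cultures are not stated, so p-values measure only the spread between these 4 libraries. The members and lists were chosen with earlier results of these data known. Genes named are the members, Aurka, from each other list those called or, with none, the most abundant, and the 3 nearest genes of each member by pattern, of which a gene near Cdk6 is not reported here. Exceptions, chosen after their values were seen, are Ccnb2, Ccng1, Cdc25c, Fzr1, Cdkn2a, Cdkn2b, Skp2, Fbxo31, genes sharing a member's locus and the markers quoted.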

Additional observations from a re-analysis of the deposited data

Results flagged for a closer look

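Members whose log2 change after knockdown had opposite signs in the lines were singled out, and the difference between lines was not tested because 1 library a condition leaves no degrees of freedom for it. Cdk1 stood at 0.58 in CT26 and −0.0029 in MC38, and Cdk2 at 0.25 and −0.21. Cdk6 stood at 0.0097 and −0.12, and Ccnd3 at 0.0681 and −0.0199. Of these, Cdk2 had counting intervals clear of 0 on both sides, while the CT26 interval of Cdk6, the MC38 interval of Cdk1 and both intervals of Ccnd3 contained 0. In FPKM, Cdk1 and Ccnd3 were above 0 in both lines (0.44 and 0.0022 for Cdk1, 0.26 and 0.060 for Ccnd3).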

How the results depend on the processing

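The common call of Ccna2, and with it the count of 1 member, became 0 under upper-quartile scaling (229 genes called), FPKM with pseudocounts of 0.1 and 1 (6 and 1 genes), DESeq2's Wald test (29 genes), a mean of at least 50 counts (101 genes) and a fit with no block, in place of 333 genes, and the cause was not tested. Without the block that pairs libraries of 1 line, 0 members and 0 genes were called by edgeR, 13 genes had an unadjusted p under 0.05, and Ccna2 stood at 0.38 (adjusted p = 1). The samples carry no replicate numbers beyond the line itself. Total counts in place of TMM raised the fitted difference of MC38 minus CT26 by 0.34 for each of the 10 members and upper quartiles by 0.19, and the share of line calls that were higher in MC38 went from 52.1% to 66.5% and 60.2%. The share of common calls that were higher went from 59.8% to 49.1% with total counts. With total counts Ccna2 reversed to 0.11 between lines and Ccne1 was called (0.37, adjusted p = 0.017). Ccna2 also lost its line call in 7 other settings (adjusted p 0.052 to 0.70), leaving 8 of 10 members. In FPKM, Cdk6 in MC38 reversed to 0.016 with either pseudocount. Leaving out a line gave Ccna2 values of 0.10 and 0.62, Cdk1 −0.0029 and 0.58, and Cdk2 −0.21 and 0.25, and leaving out a hairpin gave Ccna2 line values of −0.44 and 0.078, with no test possible on 2 libraries. The counts of intervals clear of 0 were 6 to 7 in CT26 and 7 to 8 in MC38 under the other scalings. Signs turned in 22 of 444 alternative values for single genes: 9 of common effects (Cdk2 5 times, Ccnd3, Cdk1 and Cdk6), 10 within a line (Cdk6, and in MC38 also Ccnd3 and Cdk1) and 3 between lines (Ccna2 and Ccne1). Of 24 shares, 22 moved when not divided by length.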
